A study of Mus musculus with 18 samples.

Results

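CD4+ effector T cells that lacked the nuclear receptor CAR (gene Nr1i3) were compared with wild-type cells in 3 organs, and the question here was for which genes the genotype difference in the gut departed from that in the spleen. For each gene, the CAR-deficient minus wild-type difference was averaged over small intestine lamina propria (siLP) and colonic lamina propria (cLP), and the spleen difference was subtracted. This value, called the organ difference below, is on the log2 scale of CPM, counts scaled to a common library size. A positive organ difference means that CAR-deficient cells, relative to wild-type cells, stood higher in gut than in spleen. All 18 libraries of the series entered it, 3 in each of 6 groups, and 14876 of the 34162 genes in the table had enough counts to be tested.

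The CAR-deficient cells were C57BL/6 Nr1i3-/- and the wild-type cells were C57BL/6 CD45.1+. Both were transferred into Rag-deficient hosts, which lack T and B lymphocytes but keep myeloid, epithelial and stromal cells, and were sorted as CD4+ effector T cells at week 3. Each library came from about 500 sorted cells. Count columns are named by organ and CD45.1 status, and CD45.1-negative columns can only be the CAR-deficient ones. Libraries are called a, b and c by the endings of their column names. The labels do not say whether replicate libraries are from separate hosts, so the p-values below measure the spread between libraries, which may be technical.

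CAR is a ligand-activated transcription factor best known from liver, where foreign chemicals and bile acids switch it on and it drives genes for oxidases, transferases and efflux pumps. T cells that enter the gut wall meet bile acids and microbial products that are scarce in the spleen. Effector CD4+ T cells can carry cytokines, granzymes and receptors shared with natural killer (NK) cells, and the helper programmes named Th1, Th2 and Th17 are defined by the cytokines they make.

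Total counts ran between 19605316 and 25436582 per library. Cd4 was present in every library at 109 to 236 CPM and Cd3e at 555 to 1372 CPM, while Cd8a did not pass 2.44 CPM and Cd8b1 did not pass 11.6 CPM. The effector marker Cd44 lay between 71.6 and 292 CPM. Libraries a held 15466 to 16128 genes with counts, against 17013 to 18819 in libraries b and c, and 3.70% to 3.98% mitochondrial counts, against 2.23% to 3.22%. Each group has 1 library a, so this contrast between libraries crosses the genotypes and organs evenly.

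Nr1i3 was too low to check the genotype labels well. The library labelled siLP CAR-deficient a had 196 counts of Nr1i3 (9.49 CPM), the highest of the 18, which goes against its label, and siLP CAR-deficient b and c had 0. The cLP CAR-deficient libraries had 0, 29 and 1 counts, and the spleen CAR-deficient libraries 0, 14 and 14. Wild-type libraries had 0 to 36 counts. The labels do not give which exons the deletion removes. The organ difference of Nr1i3 was 4.19 ± 3.06 (SE), with an edgeR adjusted p of 1.00, and -0.33 without that library. The pseudogene Gm28438 separated the labelled genotypes in all 18 libraries. Since Gm28438 was singled out after its values were seen, it is no test of the labels. It had 28.5 to 78.6 CPM in CAR-deficient libraries, among them 40.8 CPM in the library labelled siLP CAR-deficient a, and 0 to 5.27 CPM in wild-type libraries.

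No gene had an organ difference past the threshold of an adjusted p of 0.05 in edgeR's quasi-likelihood test with Benjamini-Hochberg adjustment. At an unadjusted p under 0.05 there were 228 genes, or 1.53% of those tested, with 117 above and 111 below 0; 744 would be expected by the p-value's definition if no gene differed. The median organ difference over all tested genes was -0.04, and 47.0% lay above 0. DESeq2's Wald test called 9 genes of 14792 (0.0608%), and limma's voom fit with sample quality weights called 0 of 14876. The spread between libraries was wide: the common biological coefficient of variation was 0.791. Why there were no calls in edgeR, and fewer genes under 0.05 than the expected 744, was not tested. In edgeR each gene described below failed the correction for all genes. DESeq2's 9 calls are all described below, and Haao, Casp12 and Exd2 are among them.

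**Figure D1:**
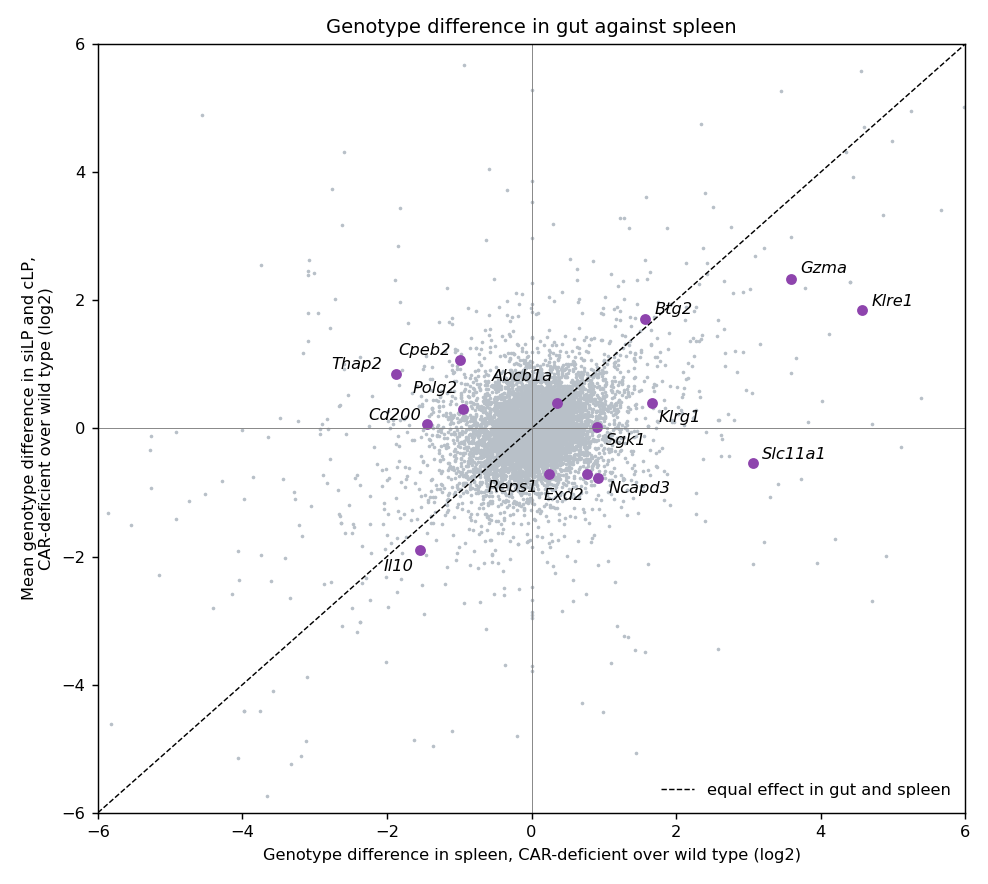
Genotype difference (CAR-deficient over wild type, log2) in spleen on the x axis and its mean in siLP and cLP on the y axis, for the 10051 tested genes that average 5 CPM or more in 1 group; 26 of them lie outside the axes. Purple points are named genes and the dashed line marks an equal effect in gut and spleen: Btg2 sits on it, Klrg1, Klre1 and Exd2 below it, and Cd200 and Polg2 above it.

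The genes were also sorted by whether the libraries of the 2 genotypes overlapped in each organ. In 358 genes (2.41%) all 3 spleen CAR-deficient libraries lay above all 3 spleen wild-type libraries, while the genotypes overlapped in siLP and cLP. In 355 genes (2.39%) they lay below them under the same condition. The reverse arrangement, with genotypes apart in the same direction in both siLP and cLP and overlapping in spleen, held for 45 genes higher (0.303%) and 49 genes lower (0.329%) in CAR-deficient gut cells. It asks for separation in 2 organs rather than 1, so the counts of the 2 arrangements cannot be compared. A full crossing, apart in all 3 organs and in opposite directions, was found in 1 gene (0.00672%), the gene model Gm48401. It had 12.3, 11.0 and 7.06 CPM in siLP CAR-deficient cells, against 4.55, 5.12 and 4.84 CPM in siLP wild-type cells. In cLP the CAR-deficient libraries had 11.1, 5.57 and 4.81 CPM, against 3.49, 3.75 and 3.36 CPM in wild-type libraries. In spleen the CAR-deficient libraries had 1.21, 1.50 and 1.95 CPM, against 2.72, 2.70 and 2.32 CPM in wild-type libraries. Its log2 organ difference came to 1.77 ± 0.65 (SE; edgeR adjusted p = 1.00).

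Killer cell lectin-like receptors, which NK cells and also terminal effector T cells can carry, lay mostly below 0. Of 15 listed members 13 were tested, and 11 of the 13 had a negative organ difference; 2 of 13 lay above 0, against 47.0% of all tested genes. The list's median was -1.84 and that of all genes -0.04. Within endings a, b and c the list's median was -1.59, -0.42 and -1.93. The median genotype difference was 0.31 in siLP, 1.06 in cLP and 2.97 in spleen, and 10 of the 13 lay above 0 in each organ. In spleen 5 of the 13 had all CAR-deficient libraries above all wild-type libraries and overlapped in both gut organs, against 2.41% of all tested genes. No member passed the adjusted threshold and 2 were below 0 at an unadjusted p under 0.05 (0.746% of all genes). In sorted pools, fewer cells of a kind and less RNA per cell cannot be told apart.

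Klrg1, an inhibitory receptor for cadherins and a standard marker of terminal effector cells (ENSMUSG00000030114, mm10 chromosome 6, 122270596 to 122282882), led this group. It had 161, 177 and 207 CPM in siLP CAR-deficient cells, against 110, 178 and 151 CPM in siLP wild-type cells. In cLP the CAR-deficient libraries had 130, 140 and 174 CPM, against 87.7, 141 and 86.4 CPM in wild-type libraries. In spleen the CAR-deficient libraries had 258, 317 and 570 CPM, against 58.1, 140 and 163 CPM in wild-type libraries. The genotypes overlapped in both gut organs and were apart in spleen. The genotype difference of Klrg1 was 0.31 ± 0.37 in siLP, 0.49 ± 0.37 in cLP and 1.66 ± 0.38 in spleen (log2, SE). Its organ difference was -1.26 ± 0.45, with a 95% interval of -2.22 to -0.30 (edgeR adjusted p = 1.00). Computed from the libraries of each ending alone, it was -1.59, -1.19 and -1.07 for a, b and c.

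Klre1, another lectin-like receptor of mouse NK cells (ENSMUSG00000050241, mm10 chromosome 6, 129577905 to 129585827), was spread more widely in gut. It had 37.9, 35.9 and 14.7 CPM in siLP CAR-deficient cells, against 0.406, 0.577 and 14.99 CPM in siLP wild-type cells. In cLP the CAR-deficient libraries had 24.2, 8.04 and 7.13 CPM, against 10.2, 0.797 and 5.67 CPM in wild-type libraries. In spleen the CAR-deficient libraries had 148, 82.1 and 104 CPM, against 6.77, 3.92 and 3.33 CPM in wild-type libraries. Spleen thus showed a mean of 112 ± 33.7 CPM in CAR-deficient and 4.68 ± 1.84 CPM in wild-type cells (SD, n = 3 each), with no overlap. The organ difference of Klre1 was -2.72 ± 1.30, with a 95% interval of -5.48 to 0.03 (edgeR adjusted p = 1.00). Within endings a, b and c it was -0.69, 0.12 and -4.78, so it was uneven and did not keep its sign. It came to -1.02 without siLP wild-type c, the 1 siLP wild-type library with Klre1 near the CAR-deficient level.

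Klrd1 (CD94) and Klrk1 (NKG2D) followed the same arrangement in spleen. Klrd1 had 301, 148 and 257 CPM in spleen CAR-deficient cells, against 4.70, 12.4 and 62.0 CPM in spleen wild-type cells, and its organ difference was -1.84 ± 1.32. In siLP, wild-type c held 140 CPM of Klrd1, above each of the siLP CAR-deficient libraries at 91.6 to 106 CPM. Klrk1 had 74.8, 92.6 and 83.8 CPM in spleen CAR-deficient cells, against 5.67, 9.53 and 16.8 CPM in spleen wild-type cells, and its organ difference was -2.37 ± 1.84. Klrc1 (NKG2A), the inhibitory partner of CD94, did not share this: it overlapped in all 3 organs, with an organ difference of -0.21 ± 0.81. Klra3, of the Ly49 receptor family, was low and differed from these: its genotypes were apart in cLP, at 0.306 to 1.91 CPM in CAR-deficient and 2.11 to 36.2 CPM in wild-type libraries. They overlapped in spleen, at 0.846 to 19.3 CPM in CAR-deficient and 0 to 2.37 CPM in wild-type libraries. Its genotype difference was -3.25 in siLP, -3.64 in cLP and 2.58 in spleen. For Klra3 the organ difference was -6.03 ± 2.49 (edgeR adjusted p = 1.00) and -3.79 without spleen CAR-deficient c, and reads of the near-identical Ly49 genes may be split between them. Klrb1b and Klrb1c were the 2 members with a positive organ difference, and both overlapped between genotypes in spleen. Klrb1b was 0 in all 3 spleen CAR-deficient libraries, against 0, 2.25 and 0 CPM in spleen wild-type libraries.

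The summed level of the 15 receptors was 409 to 493 CPM in siLP CAR-deficient libraries, against 158 to 470 CPM in siLP wild-type libraries. In cLP it was 340 to 502 CPM in CAR-deficient cells, against 224 to 407 CPM in wild-type cells. In spleen it was 682 to 1064 CPM in CAR-deficient cells, against 105 to 293 CPM in wild-type cells, and only there were the genotypes apart. Markers of other cells that carry these receptors were measured beside them. The 12 markers of CD8 T cells, NK cells and innate lymphoid cells summed to 117 to 164 CPM in spleen CAR-deficient and 82.5 to 149 CPM in spleen wild-type libraries, which overlap. Of 11 tested, 4 had a positive and 7 a negative organ difference. Klra4 was higher in every CAR-deficient library in cLP and spleen, Gzmc was lower in siLP, and Klrb1c is in both lists. The NK marker Ncr1 was 0, 0.423 and 4.26 CPM in spleen CAR-deficient cells and 0 in all 3 spleen wild-type libraries. In siLP Ncr1 was 0, 1.98 and 0 CPM in CAR-deficient and 0, 2.74 and 3.62 CPM in wild-type libraries. Its organ difference was -11.22 ± 3.97 (edgeR unadjusted p = 0.0154), with 3 group means under the floor. The 7 gamma delta T cell markers summed to 81.9 to 287 CPM in spleen CAR-deficient and 1.80 to 97.8 CPM in spleen wild-type libraries. In siLP they summed to 207 to 663 CPM in CAR-deficient and 43.4 to 150 CPM in wild-type libraries. In cLP the sums overlapped, at 343 to 407 CPM in CAR-deficient and 68.2 to 818 CPM in wild-type libraries. Trdc, the delta chain gene, was 0, 0.282 and 0 CPM in spleen CAR-deficient and 0, 8.79 and 1.48 CPM in spleen wild-type libraries. The largest item of the spleen CAR-deficient sum was Tcrg-C2, at 264, 119 and 71.3 CPM. The part of these cells in the result was not tested.

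**Figure D2:**
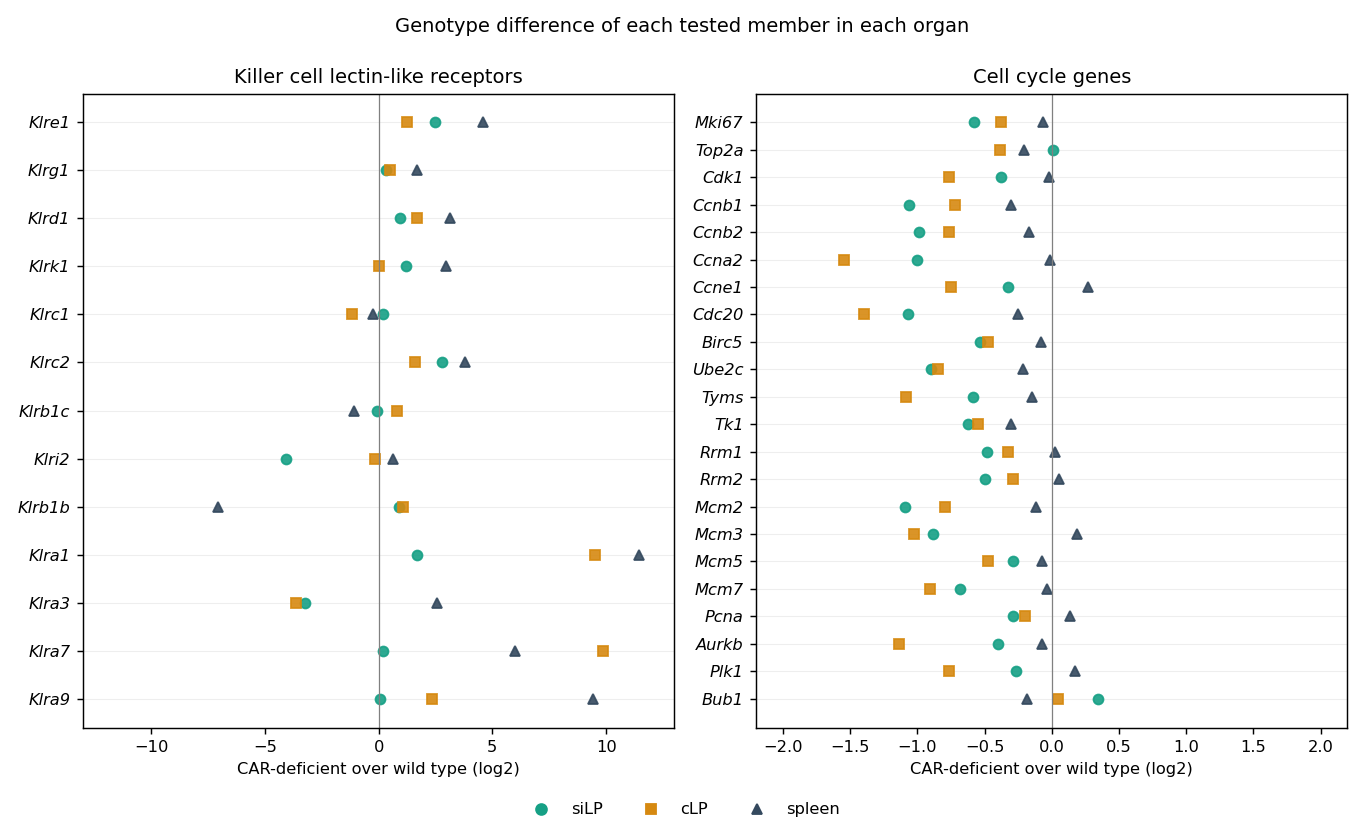
Genotype difference (CAR-deficient over wild type, log2) of each tested member in siLP, cLP and spleen, for 13 killer cell lectin-like receptors on the left and 22 cell cycle genes on the right. Spleen lies above both gut organs in 9 of the 13 receptors and in 20 of the 22 cell cycle genes; values past 5 belong to receptors with a group at or near 0 and depend on the prior count.

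Other genes of terminal effector and migrating cells also lay mostly below 0, with a smaller gap between organs than the receptors. Their median genotype difference was 0.46 in siLP, 0.17 in cLP and 0.51 in spleen. Of 15 tested, 12 had a negative organ difference and 3 a positive one, against 47.0% of all tested genes above 0, with a median of -0.39. That median was -0.098 without spleen CAR-deficient c and -0.67 without spleen wild-type c, and 9 to 12 of the 15 lay below 0 when 1 library was left out. The genotype difference of Cx3cr1, a chemokine receptor of cytotoxic effector cells, was 1.65 in siLP, 1.73 in cLP and 2.57 in spleen. Zeb2, a transcription factor of terminal differentiation, had 1.37, 1.54 and 2.36 in the same organs. Their organ differences were -0.88 ± 0.86 and -0.91 ± 0.71, within the spread between libraries. Ly6c1, a surface protein of circulating T cells, ran the other way, at 3.35 ± 1.44 (edgeR adjusted p = 1.00), and at 1.21 without spleen wild-type c. In spleen it had 0.422, 0.564 and 1.45 CPM in CAR-deficient cells, against 3.27, 0.245 and 19.6 CPM in wild-type cells, which overlap, and its reads may be shared with Ly6c2.

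A single kinase gene, Sgk1, was also arranged by spleen. Its product, the serum and glucocorticoid regulated kinase, is induced by salt and known to favour Th17 cells (ENSMUSG00000019970, mm10 chromosome 10, 21882184 to 21999903). Sgk1 had 147, 108 and 151 CPM in siLP CAR-deficient cells, against 150, 102 and 130 CPM in siLP wild-type cells. In cLP the CAR-deficient libraries had 259, 161 and 176 CPM, against 198, 203 and 206 CPM in wild-type libraries. In spleen the CAR-deficient libraries had 118, 83.4 and 142 CPM, against 42.3, 78.0 and 63.5 CPM in wild-type libraries, and these did not overlap. The organ difference was -0.87 ± 0.34, with a 95% interval of -1.60 to -0.14 (edgeR adjusted p = 1.00), and it was negative within each ending.

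Cd200 stood lower in every CAR-deficient spleen library than in the wild-type ones while the genotypes overlapped in gut. CD200 is a surface glycoprotein that engages an inhibitory receptor on myeloid cells (ENSMUSG00000022661, mm10 chromosome 16, 45382135 to 45409053). It had 26.5, 22.7 and 15.7 CPM in siLP CAR-deficient cells, against 14.1, 17.1 and 15.02 CPM in siLP wild-type cells. In cLP the CAR-deficient libraries had 4.01, 12.3 and 8.09 CPM, against 13.6, 8.44 and 8.80 CPM in wild-type libraries. In spleen the CAR-deficient libraries had 6.96, 13.5 and 7.25 CPM, against 32.4, 23.2 and 20.4 CPM in wild-type libraries. The organ difference of Cd200 was 1.53 ± 0.56 (95% interval 0.34 to 2.72, edgeR adjusted p = 1.00). The endings gave 1.78, 1.25 and 1.45, among the most even of the named genes.

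Polg2, the accessory subunit of the mitochondrial DNA polymerase, and Ctnna1, the catenin that ties cadherins to actin, shared that arrangement. Polg2 had 7.48, 10.1 and 12.9 CPM in spleen CAR-deficient cells, against 23.0, 16.1 and 19.9 CPM in spleen wild-type cells, while gut libraries of both genotypes overlapped. The organ difference was 1.25 ± 0.47 (edgeR adjusted p = 1.00). Ctnna1 had 7.38, 11.2 and 11.4 CPM in spleen CAR-deficient cells, against 31.1, 25.2 and 23.8 CPM in spleen wild-type cells. For Ctnna1 it was 1.61 ± 0.61 (edgeR adjusted p = 1.00), and ending a gave 3.26 against 1.07 and 0.95 for b and c. Thap2, a zinc-finger gene, also lay lower in spleen CAR-deficient cells, at 1.42, 7.19 and 10.2 CPM against 46.3, 11.3 and 11.5 CPM in wild-type cells. That gap was carried by ending a: its organ difference there was 6.76, against 1.59 and -0.15 for b and c, and the fit gave 2.72, or 1.71 without spleen wild-type a.

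**Figure D3:**
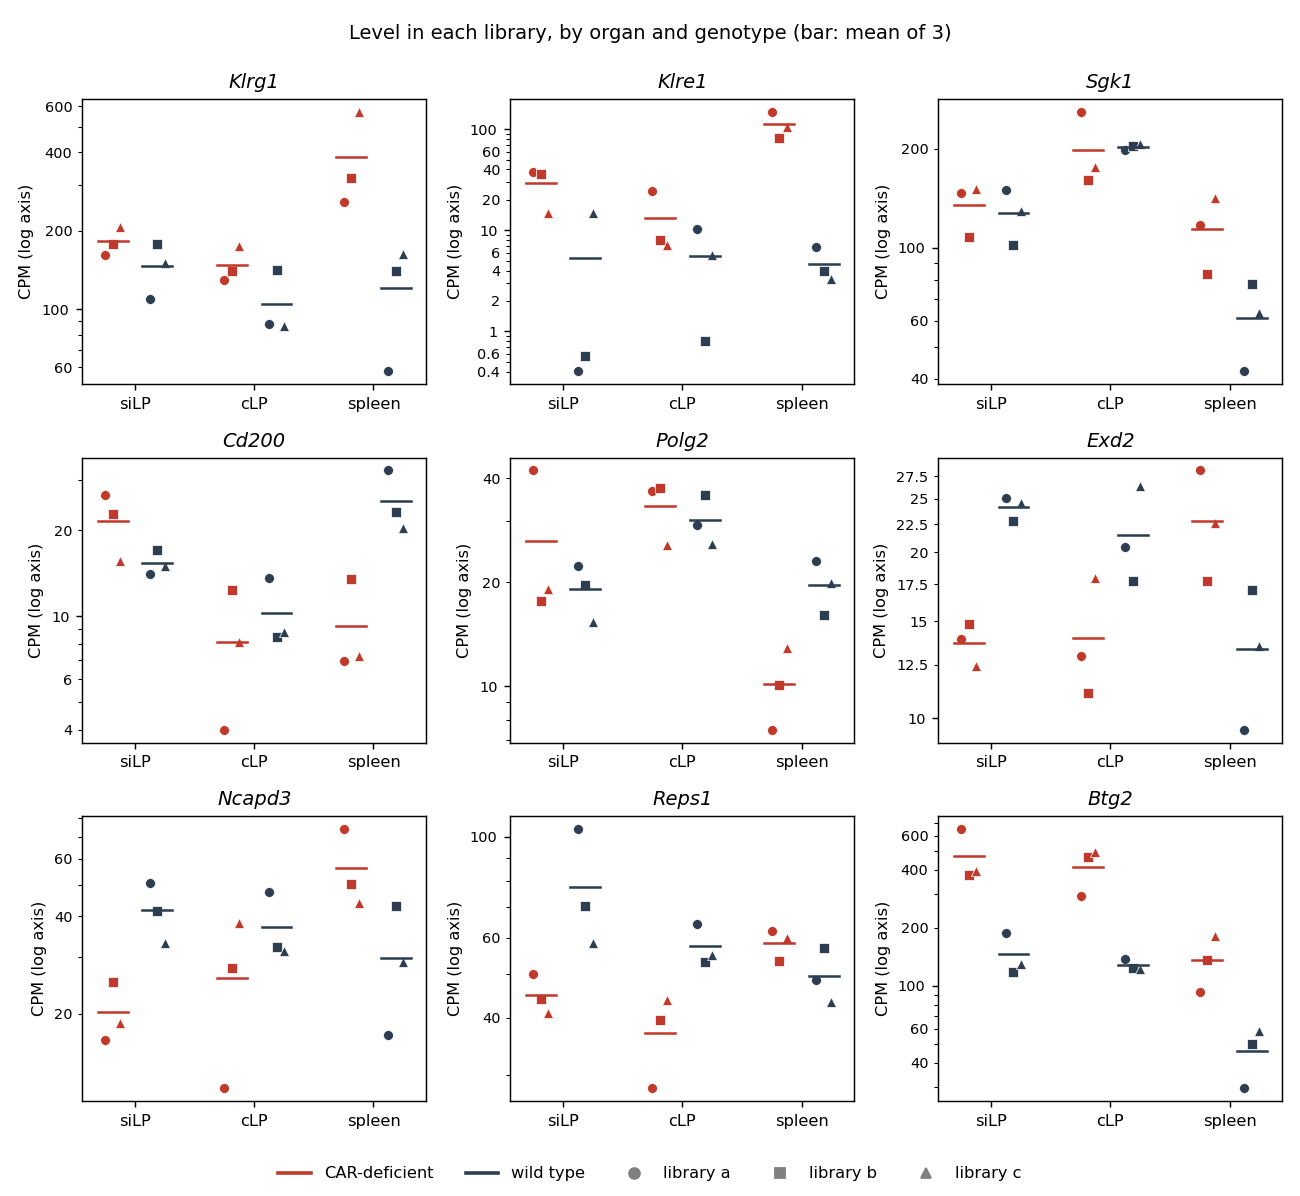
CPM (log axis) of 9 genes in each of the 18 libraries, by organ and genotype; point shapes are libraries a, b and c, bars are means of 3 libraries. In spleen, Klrg1, Klre1 and Sgk1 are higher and Cd200 and Polg2 lower in every CAR-deficient library than in every wild-type library; Exd2, Ncapd3 and Reps1 lie lower in CAR-deficient gut cells and Btg2 lies higher in CAR-deficient cells of all 3 organs.

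In a further set of genes the 2 sides of the contrast pointed in opposite directions. Among the 14 named genes with the smallest p below 0, 12 had a genotype difference below 0 in both siLP and cLP and above 0 in spleen. Among the 14 above 0, 12 had the mirror image. These signs follow in part from choosing genes by the organ difference, so they are a description of the members and no test.

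Exd2, an exonuclease of DNA end resection (ENSMUSG00000032705, mm10 chromosome 12, 80463095 to 80500227), had the smallest p of the named genes with counts in every library. It had 13.9, 14.8 and 12.4 CPM in siLP CAR-deficient cells, against 25.1, 22.8 and 24.6 CPM in siLP wild-type cells. In cLP the CAR-deficient libraries had 12.9, 11.1 and 18.0 CPM, against 20.5, 17.7 and 26.4 CPM in wild-type libraries. In spleen the order was turned round, with 28.1, 17.7 and 22.6 CPM in CAR-deficient cells, against 9.53, 17.05 and 13.5 CPM in wild-type cells. The genotypes were apart in siLP and in spleen, and in cLP 1 CAR-deficient library reached into the wild-type range. Its organ difference was -1.49 ± 0.43 (95% interval -2.40 to -0.58, edgeR adjusted p = 1.00). DESeq2 gave it -1.48 with an adjusted p of 0.0477, past the threshold, where edgeR did not.

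Ncapd3, a condensin II subunit that shapes chromosomes for division, had 16.7, 25.2 and 18.8 CPM in siLP CAR-deficient cells, against 50.4, 41.5 and 33.1 CPM in siLP wild-type cells. In cLP it had 11.8, 27.7 and 38.0 CPM in CAR-deficient cells, against 47.5, 32.1 and 31.3 CPM in wild-type cells. In spleen it had 74.1, 50.1 and 43.9 CPM in CAR-deficient cells, against 17.2, 43.1 and 29.0 CPM in wild-type cells. The genotypes were apart in siLP and in spleen, in opposite directions, and overlapped in cLP. For Ncapd3 the organ difference was -1.69 ± 0.52 (edgeR adjusted p = 1.00), with -3.90 in ending a, -0.69 in b and -0.86 in c.

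Reps1, an adaptor protein of endocytosis, was the 1 gene of the 28 lower in every CAR-deficient gut library than in the wild-type libraries of its organ while overlapping in spleen. It had 49.97, 44.1 and 41.0 CPM in siLP CAR-deficient cells, against 104, 70.3 and 58.6 CPM in siLP wild-type cells. In cLP it had 28.04, 39.6 and 43.8 CPM in CAR-deficient cells, against 64.4, 53.1 and 55.1 CPM in wild-type cells. Spleen libraries had 62.1, 53.3 and 60.0 CPM in CAR-deficient cells, against 48.4, 57.0 and 43.3 CPM in wild-type cells. The organ difference of Reps1 was -0.95 ± 0.32 (95% interval -1.63 to -0.26, edgeR adjusted p = 1.00).

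Haao, the kynurenine pathway enzyme that leads to quinolinate, had the smallest p of the named genes but was scarce. It was 0 in all 3 siLP CAR-deficient libraries, against 12.8, 3.25 and 1.47 CPM in siLP wild-type libraries. In cLP it was 0, 0 and 0.700 CPM in CAR-deficient cells, against 2.08, 0.609 and 1.77 CPM in wild-type cells. In spleen it was 7.91, 2.02 and 3.49 CPM in CAR-deficient cells, against 0, 1.19 and 0.885 CPM in wild-type cells. The genotypes overlapped only in cLP, by 1 library. The fitted organ difference of -8.997 ± 2.29 (edgeR adjusted p = 1.00; DESeq2 adjusted p = 0.0285) depends on the prior count. With group means under 3 counts per library set to that floor, 0.108 to 0.185 CPM, it was -6.77.

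Casp12, a caspase of the endoplasmic reticulum in mice, was 14.1, 1.32 and 0.861 CPM in spleen CAR-deficient cells and 0 in all 3 spleen wild-type libraries. Its genotypes overlapped in siLP and cLP, its organ difference on floored means was -6.13, and DESeq2 gave an adjusted p of 0.0420. Rabif, a chaperone of Rab GTPases, gave values close together over the endings, at -1.21, -0.75 and -0.77, and an organ difference of -0.90 ± 0.32. Thap12 and Zfp410, both zinc-finger genes, had -1.60 ± 0.57 and -1.21 ± 0.44. Thap12 was uneven over the endings, at -3.50, -1.12 and 0.39 in a, b and c, and came to -0.88 without spleen CAR-deficient a, which held 94.0 CPM against 38.5 and 26.7 CPM in b and c. Gmpr2, a guanosine monophosphate reductase, had -1.08 ± 0.39 and Mfsd14b, a transporter-like membrane protein, had -1.22 ± 0.46. Slc11a1 and H2-DMb2, a metal transporter and a peptide-loading subunit known from phagocytes and antigen-presenting cells, had -3.60 ± 1.30 and -5.19 ± 1.92. Both leaned on spleen CAR-deficient a, at 18.4 CPM of Slc11a1 and 12.5 CPM of H2-DMb2, against at most 2.49 and 1.77 CPM in the other 2 spleen CAR-deficient libraries, and were -1.85 and -3.16 without it. That library was the lowest of the spleen CAR-deficient ones in the summed macrophage, monocyte and neutrophil markers, at 23.9 CPM against 90.8 and 53.0 CPM in b and c. The part of such cells in the Slc11a1 and H2-DMb2 values was not tested.

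The remaining named genes above 0 were mostly low or carried by few libraries. Hoxa7, a homeobox gene, had 20.3, 0.937 and 2.36 CPM in cLP CAR-deficient cells, against 0, 0.281 and 0.136 CPM in cLP wild-type cells, and was at or under 0.368 CPM in siLP and spleen. Klk1, tissue kallikrein, had 15.5, 10.8 and 1.66 CPM in cLP CAR-deficient cells, against 0, 0.516 and 1.59 CPM in cLP wild-type cells, and was at or under 0.0484 CPM elsewhere. Mpo, the neutrophil peroxidase, was 74.7 CPM in spleen wild-type b and at or under 1.12 CPM in each of the other libraries. Its organ difference of 10.34 therefore belonged to that library, and was -1.79 without it. Cxcl13, a B cell attracting chemokine, was 0 in all 3 spleen CAR-deficient libraries and 0, 8.42 and 1.94 CPM in spleen wild-type libraries. Ust, a sulfotransferase, had 9.54, 1.64 and 5.17 CPM in siLP CAR-deficient cells, against 0, 0.108 and 1.08 CPM in siLP wild-type cells, and an organ difference of 4.74 ± 1.85. Cpeb2, Mbtps2 and Slc25a36 encode a regulator of translation, the site-2 protease and a mitochondrial nucleotide carrier. They had organ differences of 2.05 ± 0.85, 1.50 ± 0.63 and 1.34 ± 0.56, with 5.74, 3.94 and 2.70 in ending a and at most 0.85 in b and c.

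Krt8 and Pigr belong to gut epithelium, and other markers of that tissue stood with them. Of 16 epithelial markers 11 were tested, 10 of them had a positive organ difference, and 4 were above 0 at an unadjusted p under 0.05, against 0.787% of all tested genes. Their summed level was 15.1 to 27.9 CPM in siLP CAR-deficient libraries, against 4.73 to 9.82 CPM in siLP wild-type libraries. In cLP it was 47.8 to 292 CPM in CAR-deficient cells, against 24.2 to 46.5 CPM in wild-type cells, and in spleen 8.06 to 12.3 CPM in CAR-deficient and 9.61 to 14.1 CPM in wild-type libraries. Krt8, a keratin, had 12.3, 29.5 and 7.92 CPM in cLP CAR-deficient cells, against 2.76, 2.72 and 6.90 CPM in cLP wild-type cells. In spleen it was 0 in all CAR-deficient libraries and 0, 0 and 0.379 CPM in wild-type libraries. In siLP it was 3.68, 0 and 0 CPM in CAR-deficient libraries and 0 in all wild-type libraries. Pigr, the immunoglobulin transporter of epithelium, had 0.431, 23.1 and 1.23 CPM in cLP CAR-deficient cells, against 0.619, 0.187 and 0.363 CPM in cLP wild-type cells. The library cLP CAR-deficient b held the highest values of both. Their organ differences were 9.45 and 5.248, and 4.88 and 2.63 without spleen wild-type c. On floored means they were 2.53 for Krt8 and 4.20 for Pigr. Of the 11 tested markers, 8 had a group mean under the floor, against 2133 of all 14876 tested genes. The part of epithelial RNA in the other positive organ differences was not tested.

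**Figure D4:**
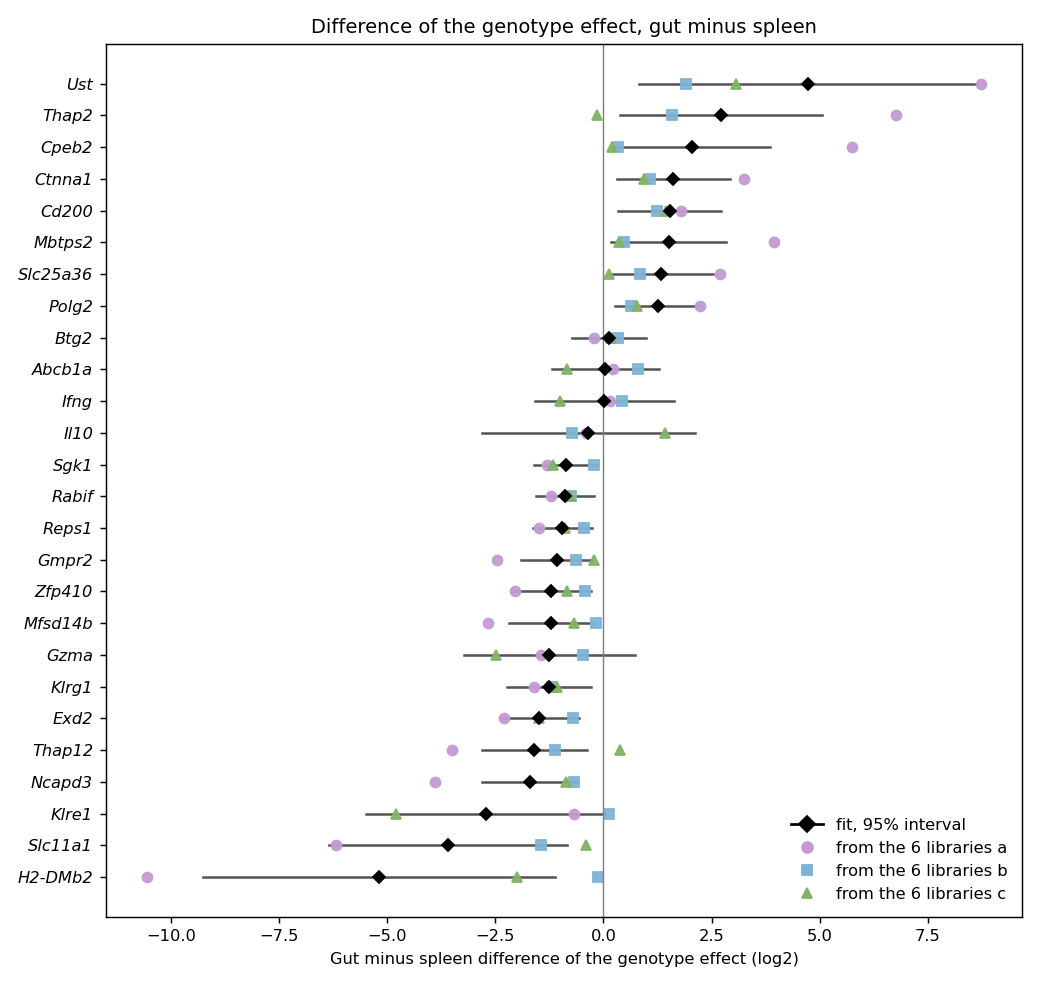
Organ difference (gut minus spleen difference of the genotype effect, log2) of 26 genes, those named for the smallest p and the set genes that have no group mean under the floor: black diamonds with 95% intervals are from the fit of all 18 libraries, and coloured points are from the 6 libraries of 1 ending alone. Cd200, Klrg1, Rabif, Exd2, Ust, Cpeb2 and H2-DMb2 each have the 3 endings on 1 side of 0, with ending a farthest out. The margin of ending a is wider in Ust, Cpeb2 and H2-DMb2 than in Cd200, Klrg1, Rabif and Exd2.

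How far the libraries of 1 ending carried these values was described over the 28 genes named for the smallest p. In 24 of them the 3 endings shared a sign, against 23.1% of all tested genes, a comparison from which nothing is read since the genes were picked by the same values. In 25 of the 28 the farthest value from 0 was that of ending a, the libraries with fewer genes detected; the part of that in the result was not tested. All 28 kept their direction without the library labelled siLP CAR-deficient a. In 4 of them a single library held most of the CPM summed over all 18.

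Cell cycle genes lay mostly below 0 in the organ difference. Of 22 tested, 20 had a negative organ difference and 2 a positive one, against 47.0% of all tested genes above 0, with a median of -0.62. The median genotype difference was -0.56 in siLP, -0.76 in cLP and -0.07 in spleen, and 20, 21 and 16 of the 22 members lay below 0 there. In cLP 7 of the 22 had every CAR-deficient library below every wild-type library, against 3.32% of all tested genes. In spleen 0 of 22 did, against 3.09%. The 7 in cLP were Ccna2, Ccnb2, Cdk1, Tk1, Top2a, Tyms and Ube2c. In siLP Mcm2, Rrm1 and Tyms were apart in this way. The share of all tested genes was not counted in siLP, so nothing about the list is read from these members. No member had an adjusted p under 0.05 or an unadjusted p under 0.05. The summed level was 1190 to 2235 CPM in siLP CAR-deficient libraries, against 1886 to 3476 CPM in siLP wild-type libraries, which overlap. In cLP it was 1512 to 1834 CPM in CAR-deficient cells, against 2058 to 2651 CPM in wild-type cells, which do not overlap. In spleen it was 2595 to 4647 CPM in CAR-deficient cells, against 3032 to 4479 CPM in wild-type cells.

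Tyms and Mki67 are given as examples of this list, picked after their values were seen. Tyms, which makes thymidylate for DNA, had 96.3, 114 and 113 CPM in siLP CAR-deficient cells, against 136, 190 and 158 CPM in siLP wild-type cells. In cLP it had 75.7, 90.1 and 113 CPM in CAR-deficient cells, against 333, 140 and 121 CPM in wild-type cells. In spleen it had 224, 257 and 166 CPM in CAR-deficient cells, against 237, 281 and 197 CPM in wild-type cells. Tyms was thus lower in every CAR-deficient gut library and overlapped in spleen, with an organ difference of -0.69 ± 0.41. Mki67, the proliferation antigen, had 116, 185 and 150 CPM in siLP CAR-deficient cells, against 224, 281 and 170 CPM in siLP wild-type cells. Its cLP libraries had 119.8, 119.5 and 140.02 CPM in CAR-deficient cells, against 232, 114 and 149 CPM in wild-type cells. Its spleen libraries had 244, 336 and 227 CPM in CAR-deficient cells, against 272, 327 and 245 CPM in wild-type cells. Mki67 overlapped between genotypes in all 3 organs, and its organ difference of -0.41 ± 0.35 was nearer 0 than the median of the list. The median of the list was not even over libraries: it was -0.84 in ending a, -0.78 in b and -0.07 in c, and -0.18 without spleen CAR-deficient b.

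Other genotype differences did not show a dependence on organ at this spread. Btg2, an antiproliferative gene (ENSMUSG00000020423, mm10 chromosome 1, 134075170 to 134079120), had 650, 374 and 396 CPM in siLP CAR-deficient cells, against 189, 117 and 130 CPM in siLP wild-type cells. In cLP it had 291, 464 and 491 CPM in CAR-deficient cells, against 137, 124 and 122 CPM in wild-type cells. Spleen libraries had 93.2, 136 and 181 CPM in CAR-deficient cells, against 29.6, 49.8 and 58.3 CPM in wild-type cells. The genotype difference of Btg2 was 1.70, 1.70 and 1.57 in siLP, cLP and spleen, with no overlap in any organ. Its organ difference was 0.13 ± 0.40, with a 95% interval of -0.72 to 0.98.

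Gzma, the granule protease granzyme A, was higher in every CAR-deficient library than in the wild-type libraries of its organ. It had 1669, 1129 and 384 CPM in siLP CAR-deficient cells, against 107, 92.0 and 301 CPM in siLP wild-type cells. In cLP it had 2768, 787 and 738 CPM in CAR-deficient cells, against 428, 138 and 502 CPM in wild-type cells. Spleen libraries had 2792, 804 and 2629 CPM in CAR-deficient cells, against 102, 69.2 and 345 CPM in wild-type cells. Its organ difference of -1.25 ± 0.93 had a 95% interval of -3.23 to 0.72, which includes both no dependence and a wide one, and was -2.26 without spleen wild-type c.

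Il10, the anti-inflammatory cytokine, had 148, 87.5 and 83.1 CPM in siLP CAR-deficient cells, against 574, 251 and 33.7 CPM in siLP wild-type cells. In cLP it had 76.9, 47.3 and 21.5 CPM in CAR-deficient cells, against 417, 237 and 90.9 CPM in wild-type cells, which do not overlap. In spleen it had 17.3, 18.2 and 1.72 CPM in CAR-deficient cells, against 60.4, 42.1 and 6.28 CPM in wild-type cells, which overlap. Its organ difference was -0.35 ± 1.16 (95% interval -2.80 to 2.11). Ifng, the Th1 cytokine, had 0.02 ± 0.76 (95% interval -1.59 to 1.64), with 1303 to 7481 CPM in siLP CAR-deficient and 1208 to 4446 CPM in siLP wild-type libraries. Abcb1a, the efflux pump that CAR drives in liver, had 0.05 ± 0.59 (95% interval -1.20 to 1.29) and overlapped between genotypes in all 3 organs. These intervals are wide, so an organ difference within their bounds is not excluded.

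Of the 23 functional lists described, no member passed the adjusted threshold. Th17 genes were the reverse of the receptors, with 12 of 15 above 0, against 47.0% of all tested genes, and a median of 0.33, which was 1.02 without spleen CAR-deficient c and 0, 0.37 and 0.94 in endings a, b and c; their median genotype difference was -0.38 in siLP, -0.39 in cLP and -1.38 in spleen. Tmem176a, a membrane protein of Th17 cells, had 0.0527, 2.35 and 3.17 CPM in spleen CAR-deficient cells, against 4.10, 3.68 and 13.3 CPM in spleen wild-type cells, and overlapped in gut. Il1r1, a receptor that promotes Th17 cells, had 0, 1.60 and 1.81 CPM in spleen CAR-deficient cells, against 4.97, 5.31 and 8.68 CPM in spleen wild-type cells, and overlapped in gut. Both were picked after their values were seen, and their organ differences were 1.99 ± 1.69 and 0.97 ± 1.75. Il17a itself was 0 in most libraries and overlapped in all organs. Th2 genes had 6 of 7 above 0 and a median of 0.36, which ran between 0.00025 without spleen CAR-deficient a, with 4 of 7 above 0, and 0.97 without spleen CAR-deficient c. The 18 other functional lists had medians between -0.23 and 0.22, among them granzymes at -0.10, IL-10 and coinhibitory receptors at 0.05, and drug-handling targets of CAR at 0.05.

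The siLP and cLP sides of the contrast were also tested apart, and share the spleen libraries. The siLP minus spleen difference had 0 genes past the adjusted threshold in edgeR and 337 at an unadjusted p under 0.05 (2.27%), with 135 above 0 (0.908%) and 202 below (1.36%). The cLP minus spleen difference had 0 and 184 (1.24%), with 109 above 0 (0.733%) and 75 below (0.504%). All 28 genes named for the smallest p had both sides in the direction of their organ difference. For Klrg1 the siLP side was -1.35 ± 0.52 and the cLP side -1.17 ± 0.52, and for Exd2 they were -1.59 ± 0.50 and -1.39 ± 0.50. Genes within 10 Mb of Ptprc, which carries the CD45.1 allele, had a median organ difference of -0.03 over 94 tested genes. At an unadjusted edgeR p under 0.05, 2 of the 94 lay above and 1 below 0 (0.787% and 0.746% of all genes). Pigr, Il10, Btg2 and Rabif, described above, lie in this region, on chromosome 1 at starts of 130826684 to 134494648. There the CD45.1 strain and the Nr1i3 genotype cannot be told apart, and a near-zero median does not clear single genes. Genes within 10 Mb of Nr1i3 had a median of -0.02 over 172.

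Of DESeq2's 9 calls, 8 were genes with at least 1 group at 0 in all its libraries. Gm28438 was among them although it separated the genotypes in each organ: the 3 spleen wild-type libraries held 0, where siLP and cLP wild-type a held 5.27 and 2.19 CPM. Mmp23, Gm12396, Fam71a, Msr1 and Cxcl3 had means of at most 6.22 CPM in any group, and edgeR gave them unadjusted p-values of 0.125 to 0.212. Haao, Casp12 and Exd2, described above, were the other 3. Of the 9, only Exd2 had counts in all 18 libraries.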

How the data were processed

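The authors deposited estimated counts per gene, named as counts in the file header, for 18 libraries of mouse RNA. Per the labels' protocols, cDNA came from the Clontech SMART-Seq v4 kit and libraries from the NEBNext Ultra II DNA kit, which keeps no strand. Salmon, DESeq2 and the build mm10 are named in the submitters' processing notes, without versions or roles. The 37 other columns were not used.

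Counts were rounded, matched to GENCODE vM21 (34162 of 34162 identifiers), filtered with filterByExpr, scaled by TMM and fitted with edgeR 4.0.16 (quasi-likelihood, 6 group means, two-sided, Benjamini-Hochberg over 14876 genes, threshold 0.05) in R 4.3.3. The code was tested on simulated data. Alternatives used DESeq2 1.42.0 and limma 3.58.1 (voom with sample weights).

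CPM is relative to the TMM-scaled library total. Named genes were the 14 of smallest p in each direction that average 5 CPM or more in 1 group (no unnamed gene models, pseudogenes or T cell receptor segments), up to 2 members of each list with an unadjusted p under 0.05, and 9 set genes; 40 in all. Members and lists were chosen with earlier results of these data known, so list counts are descriptions. A group mean under 3 counts per library counts as under the floor, which covers counting error only.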

Additional observations from a re-analysis of the deposited data

How the results depend on the processing

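The organ difference had 0 calls in edgeR and in each fit of it but DESeq2, which called 9; at an unadjusted p under 0.05 edgeR gave 228 genes, limma with sample weights 428 and fits without 1 library 200 to 329. For siLP minus spleen and cLP minus spleen DESeq2 called 12 and 8. For the genotype effect in siLP, cLP and spleen DESeq2 called 35, 12 and 17, limma with sample weights 2, 3 and 5, and edgeR without the 6 libraries a 1, 2 and 1, against 0 each in edgeR on all libraries. The causes were not tested.

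The same-ending libraries deviated from their group means together (median correlation 0.20, over 0.1 in 41 of 45 pairs), and 18 of 18 libraries correlated best with their own ending. Libraries of unlike endings had a median correlation of -0.12. Deviations from a group mean sum to 0, which pushes that value below 0 when same-ending values lie above it, so nothing is read from it. The columns carry no replicate number, so the shared deviation of same-ending libraries is a hint from the data and not a pairing by design. With the replicate block by ending the organ difference had 0 calls, and 359 genes at an unadjusted p under 0.05.

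Of 40 named genes, 33 kept their direction in every alternative run, and 27 of the 28 with the smallest p, Mpo excepted. Those that turned were near 0 or rested on few libraries. Nr1i3 was -1.14 with sample weights and -3.33 without the 6 libraries a; Abcb1a was -0.066 and -0.041 in these fits. Il10 was 0.38 with sample weights and 0.069 with the block. Ifng was -0.093, -0.13 and -0.12 with sample weights, with the block and without the 6 libraries a, and Il17a was 0.38 without them. Leaving out 1 library at a time gave -0.21 to 0.37 for Abcb1a, -0.084 to 0.38 for Btg2, -0.46 to 0.47 for Ifng, -0.97 to 0.17 for Il10, -4.41 to 1.66 for Il17a, -1.79 to 12.30 for Mpo and -0.33 to 6.60 for Nr1i3.

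Lists were recounted after seeing the data. The receptors had 9 to 12 of 13 below 0 without 1 library and 11 of 13 without the 6 libraries a, with medians of -2.53 to -1.02 in the first. Cell cycle genes had 13 to 22 and 21 of 22 below 0, with medians of -0.90 to -0.18 and -0.49. In 6 of the 23 functional lists the median kept its sign whichever library was left out. With about 500 cells a library and 3 libraries a group, genes under a few CPM are not resolved.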
